A study of Homo sapiens with 8 samples.

Results

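RBM45 cross-linking peaks were described over 5 genes of axon guidance receptors, the plexin genes PLXNA1, PLXNB1, PLXNB2 and PLXND1 and the Roundabout gene ROBO1. A peak was a member when it shared at least 1 base with the gene on the gene's own strand, with the gene's positions given in hg19. The genes held 226 of 210878 listed peaks of wild-type (WT) CLIP replicate 1, 67 of 65587 of WT CLIP replicate 2, and 15 of the 13758 peak pairs that the authors listed as shared by both. No measured value entered the choice of coordinates. The genes were proposed with earlier results of these data known.

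Plexins are single-pass membrane receptors for semaphorins, and their cytoplasmic part acts on small GTPases of the Ras and Rap families and so on the cytoskeleton of growth cones and of many other cells. Roundabout receptors bind SLIT proteins and are known for keeping axons away from the midline. RBM45 is an RNA-binding protein with RNA recognition motifs, expressed in the developing brain and found in protein inclusions in motor neuron disease.

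The study asked where RBM45 sits on RNA and whether that depends on METTL3, the enzyme that deposits most m6A on messenger RNA. Its 8 libraries form 4 groups of 2 replicates: CLIP and size-matched input from Mettl3 KO cells, and CLIP and size-matched input from WT cells. All came from HEK293T, an established transformed human embryonic kidney line, and in every group FLAG-HA-tagged human RBM45 was supplied by a lentivirus and the cells were irradiated with 300 mJ/cm2 of 254 nm light. CLIP pulled down the tagged protein, here with an antibody to the HA tag, together with the RNA cross-linked to it, so the peaks describe the tagged copy. Values below come from the WT CLIP peak lists, and the Mettl3 KO and input libraries were not analysed here. Nothing in the labels tells separate cultures from repeat libraries, so a difference between replicates may be technical.

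For each peak the caller gave a fold enrichment over its local background and a −log10 p. The number of reads stacked at the summit and the background were computed back from these values. Under settings adjusted until solutions were unique, all 293 listed peaks of the genes had exactly 1 solution. A fold of 3.12 in replicate 1, the median of that list, stands for 3 reads over a background of 0.282, since 1 is added to both. Replicate 2 reads were scaled by 0.746 before the caller formed its fold, so the same number of reads gives another fold there. The total number of reads per library is unknown, and whether a peak lies in an exon or an intron was not analysed here. In such lists more transcript and more binding per transcript cannot be told apart.

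PLXNA1 and PLXNB2 carried peaks at high density in both lists, PLXND1 and PLXNB1 carried a few weak peaks in replicate 1 alone, and ROBO1 carried the highest number of peaks of the 5 genes but spread them over more than a megabase. PLXNA1, a receptor that takes up class 3 semaphorin signals together with neuropilins, lies on the plus strand of chromosome 3 from 126707437 to 126756235 (48.8 kb, NCBI gene 5361). It held 72 peaks in replicate 1 and 25 in replicate 2, or 14.8 and 5.12 per 10 kb of gene. PLXNB2, a receptor for class 4 semaphorins, lies on the minus strand of chromosome 22 from 50713408 to 50746075 (32.7 kb, NCBI gene 23654) and held 28 and 11 peaks, or 8.57 and 3.37 per 10 kb. In both lists PLXNA1 was first and PLXNB2 second.

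PLXND1, the receptor of SEMA3E with a known role in blood vessel patterning, lies on the minus strand of chromosome 3 from 129274056 to 129325582 (51.5 kb, NCBI gene 23129). It held 14 peaks in replicate 1, or 2.72 per 10 kb, and 0 in replicate 2. PLXNB1, the receptor of SEMA4D, lies on the minus strand of chromosome 3 from 48445261 to 48471460 (26.2 kb, NCBI gene 5364). It held 6 peaks in replicate 1, or 2.29 per 10 kb, and 0 in replicate 2. ROBO1, a receptor for SLIT proteins, lies on the minus strand of chromosome 3 from 78646388 to 79817059 (1170.7 kb, NCBI gene 6091) and held 106 and 31 peaks, or 0.905 and 0.265 per 10 kb.

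The gap between the lists was wide within a gene. PLXNA1 differed more between its own lists than from PLXNB2 within either list, so the levels of these genes are ordered within a list and not across lists. PLXNB2 lay above PLXND1, PLXNB1 and ROBO1 in both lists, and its lower value, 3.37, exceeded the highest value of those genes. The order among PLXND1, PLXNB1 and ROBO1 was not the same in the lists: ROBO1 came after both in replicate 1 and before both in replicate 2, where PLXND1 and PLXNB1 had no peak. Over all peaks, replicate 2 listed 31.1% as many as replicate 1.

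To set these densities in the whole list, the genome was divided into windows of 50 kb on 1 strand, and those with at least 1 peak were counted, 30834 in replicate 1 and 17267 in replicate 2. Their median density was 0.8 and 0.4 peaks per 10 kb. In replicate 1, 0.0649% of windows reached the density of PLXNA1 and 0.882% that of PLXNB2. In replicate 2 these shares were 0.886% and 2.68%. PLXND1 and PLXNB1 were reached by 13.3% and 17.0% of replicate 1 windows, and ROBO1 by 45.5% in replicate 1 and 62.2% in replicate 2. A dense 32.7-kb or 48.8-kb gene and a window differ in length, and windows cut across gene borders, so these shares are a scale and not a test.

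**Figure D1:**
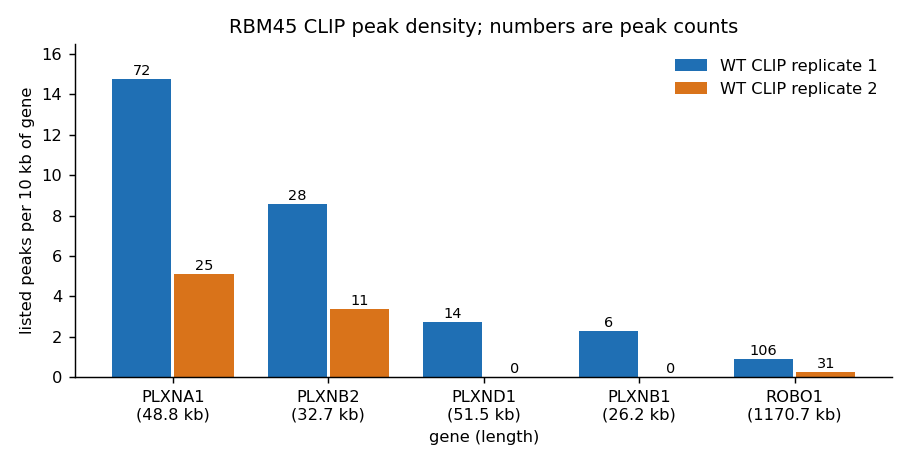
Listed peaks per 10 kb of gene (vertical axis) for the 5 genes, with 1 bar for each WT CLIP replicate and the number of peaks written above it. PLXNA1 and PLXNB2 stand above the other genes in both replicates, PLXND1 and PLXNB1 have 0 peaks in replicate 2, and ROBO1 is the longest gene with the lowest replicate 1 density.

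In PLXNA1 the peaks ran along the whole gene. The first lay 2178 bases from the 5′ end in replicate 1 and 2659 bases in replicate 2, and the last lay 766 and 6977 bases before the 3′ end. Peaks covered 6.64% of the gene in replicate 1 and 2.07% in replicate 2. They were close together: 70 of 72 replicate 1 peaks had another within 1 kb, and the median gap was 365 bases in replicate 1 and 816 in replicate 2. Of all replicate 1 peaks, 55.0% had a neighbour that near.

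In 5 equal parts of PLXNA1, from the 5′ end, replicate 1 had 21, 16, 14, 14 and 7 of its 72 peaks and replicate 2 had 5, 6, 7, 6 and 1 of its 25. The fewest peaks were in the most 3′ part in both lists. In finer stretches, the first 15 kb held 34 peaks in replicate 1 and 7 in replicate 2, and the next stretch, up to 24 kb, held 4 in replicate 1 and 7 in replicate 2. From 24 to 39 kb the counts were 27 and 10. The last 2 kb held 4 replicate 1 peaks of 5 to 11 reads and 0 replicate 2 peaks. These borders were set after the positions had been seen, and the differences between the lists were not tested. The 5 kb with the most replicate 1 peaks, 17, began 5.31 kb from the 5′ end, and the 5 kb with the most replicate 2 peaks, 7, began at 21.5 kb.

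Single PLXNA1 peaks rested on few reads. The median was 3 reads at the summit in replicate 1, with a range of 2 to 11, and 6 in replicate 2, with a range of 3 to 9. The median fold was 3.12 and 3.81, equal to the medians of the whole lists. The highest fold and score of replicate 1 belonged to the peak from 126734494 to 126734546, with 5.52-fold enrichment from 9 reads over a background of 0.811, and no replicate 2 peak overlapped it. In replicate 2 the top peak was 126726656 to 126726713, with 6.22-fold enrichment from 9 reads over a background of 0.241. It overlapped a replicate 1 peak of 4.68-fold enrichment and 5 reads at 126726649 to 126726685, and this is the highest-ranked shared pair of the 5 genes by the lower of its fold enrichments.

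PLXNB2 peaks lay mostly in the 5′ part. The first 13 kb of the gene held 17 peaks in replicate 1 and 8 in replicate 2, the stretch from 13 to 26 kb held 4 and 1, and the rest of the gene held 7 and 2. All 5 replicate 2 peaks that overlapped replicate 1, and all 3 shared pairs, were in the first 13 kb, a border chosen after the positions had been seen. The 5′ end used here is that of the longest gene model. The start of PLXNB2 in RefSeq's table, read in GRCh38, lies 6.0 kb inside a model of the same length.

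Reads at PLXNB2 summits ranged from 2 to 8 in replicate 1 (median 3.5) and from 4 to 7 in replicate 2 (median 5). The widest and strongest replicate 1 peak, 50742903 to 50743019, spanned 117 bases with 8 reads and 4.97-fold enrichment. It shared 50 bases with a replicate 2 peak of 6 reads, a pair that is not in the authors' list. In replicate 2, the peaks at 50743116 to 50743146 and at 50734183 to 50734226 tied at 5.01-fold, each with 7 reads over a background of 0.241. The second of them formed the highest-ranked shared pair of the gene with the replicate 1 peak at 50734194 to 50734234, which had 4.42-fold enrichment and also 7 reads.

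**Figure D2:**
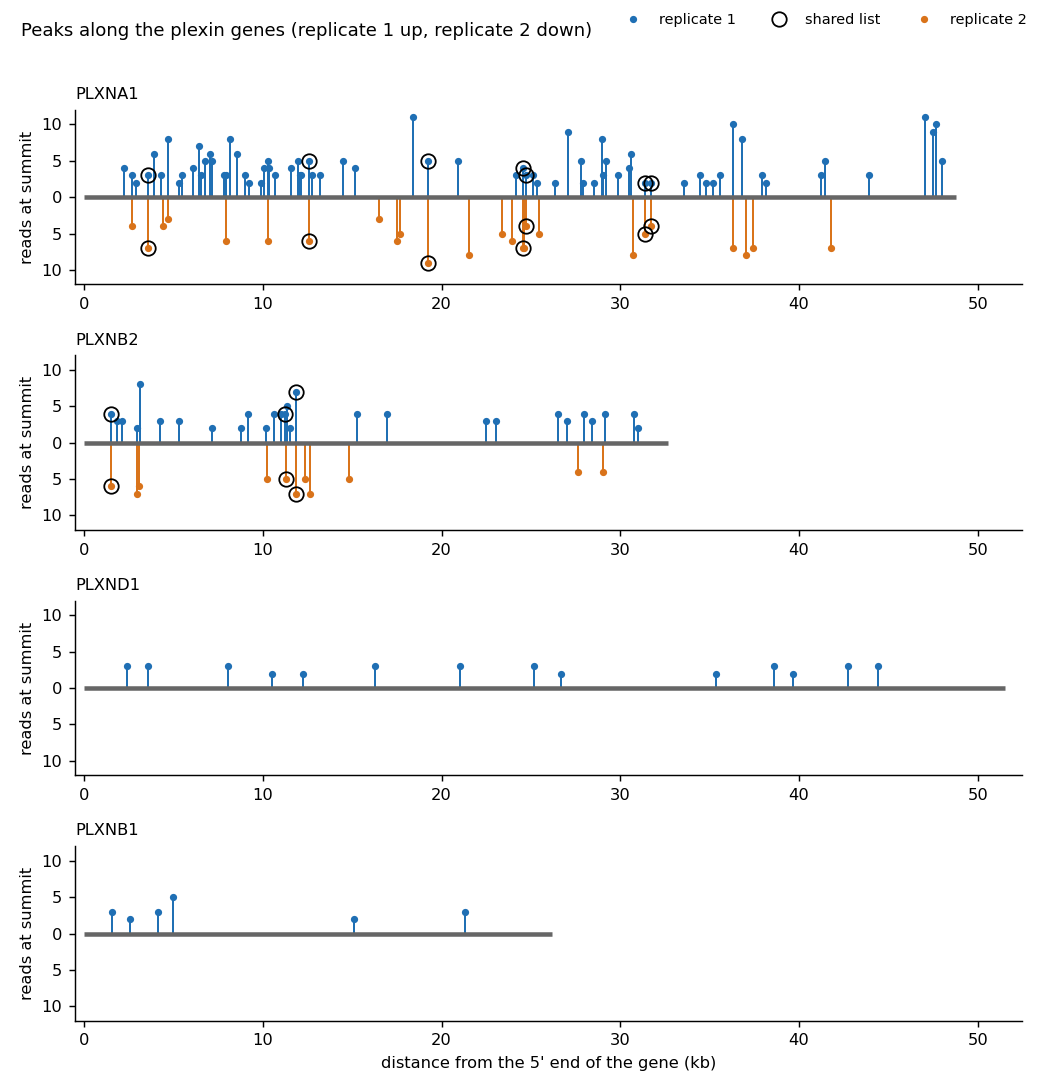
Peaks of the 4 plexin genes by distance from the 5′ end of the gene in kb (horizontal axis), with reads at the summit drawn upward for WT CLIP replicate 1 and downward for replicate 2. The grey bar is the gene and open circles mark peaks of the authors' shared list, 7 pairs in PLXNA1, 3 in PLXNB2 and 0 in PLXND1 and PLXNB1.

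The 14 PLXND1 peaks were weak, alike and evenly spread. At the summit 5 had 2 reads and 9 had 3 reads, all over the lowest background of the list, 0.282. The fold was therefore 2.34 or 3.12, and the highest −log10 p was 3.68. The 5 equal parts of the gene, from the 5′ end, held 3, 3, 3, 3 and 2 peaks. The median gap was 3012 bases, and 0 of 14 had a neighbour within 1 kb. None of the 14 overlapped a replicate 2 peak, which allows a share of up to 23.2% (exact 95% interval). Of the 60181 replicate 1 peaks in the whole list with the same fold values, 1.55% overlapped one.

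PLXNB1 had 4 of its 6 peaks in the most 5′ of 5 equal parts. At the summit 2 peaks had 2 reads, 3 had 3 and 1 had 5, all over the lowest background. The strongest, 48466467 to 48466540, lay 4.92 kb from the 5′ end with 4.68-fold enrichment and a −log10 p of 6.26. None of the 6 overlapped replicate 2, which allows up to 45.9%, while 1.87% of the 62791 replicate 1 peaks with the same fold values did. For both genes 0 overlaps is thus close to what replicate 1 peaks of this strength showed over the whole list.

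ROBO1 was split in a way the plexin genes were not. Within 737.7 kb of the 5′ end the peaks rested on few reads in both lists, and from 749.0 kb to the 3′ end most rested on many. The division was found in how the file repeats its rows: every peak upstream stands in 1 row and every peak from 749.0 kb on stands in 3 rows. Plexin peaks stand in 1 row, or in 2 for PLXNB1. In the 5 genes 39 of 226 replicate 1 and 22 of 67 replicate 2 peaks stand in more than 1 row, against 51.6% and 53.5% of the whole lists. RefSeq lists 2 transcription starts for ROBO1, and in GRCh38 the second lies 748.5 kb downstream of the first, in a gene model of 1170.8 kb, against 1170.7 kb here. Shorter ROBO1 transcripts from an internal start are known under the name DUTT1. The positions come from different builds and only the distances were set side by side.

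In the 421.7 kb from the division to the 3′ end, replicate 1 listed 33 peaks with a median of 15 reads at the summit and a range of 4 to 43. The 749.0 kb upstream held 73 peaks with a median of 3 reads and a range of 2 to 10. In replicate 2 the 3′ portion held 22 peaks with a median of 24.5 reads and a range of 11 to 48, and the upstream portion 9 peaks with a median of 4 reads and a range of 3 to 6. In replicate 2 the read numbers of the portions did not overlap. In replicate 1 they overlapped between 4 and 10 reads.

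The caller's background moved the same way. Its median was 4.05 in the 3′ portion and 0.282 upstream in replicate 1, and 4.0 in the 3′ portion and 0.241 upstream in replicate 2. As a result the fold enrichment differed much less than the reads, with a median of 3.30 in the 3′ portion and 3.08 upstream in replicate 1, and 3.87 and 3.21 in replicate 2. A −log10 p of at least 5 was reached by 20 of 33 peaks in the 3′ portion and 4 of 73 upstream in replicate 1, and by 18 of 22 and 1 of 9 in replicate 2. The number of peaks per length went with the reads in replicate 2 and not in replicate 1. It was 0.783 per 10 kb in the 3′ portion and 0.975 upstream in replicate 1, and 0.522 and 0.120 in replicate 2. The part played by the local background, and by the level of each transcript, was not tested.

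**Figure D3:**
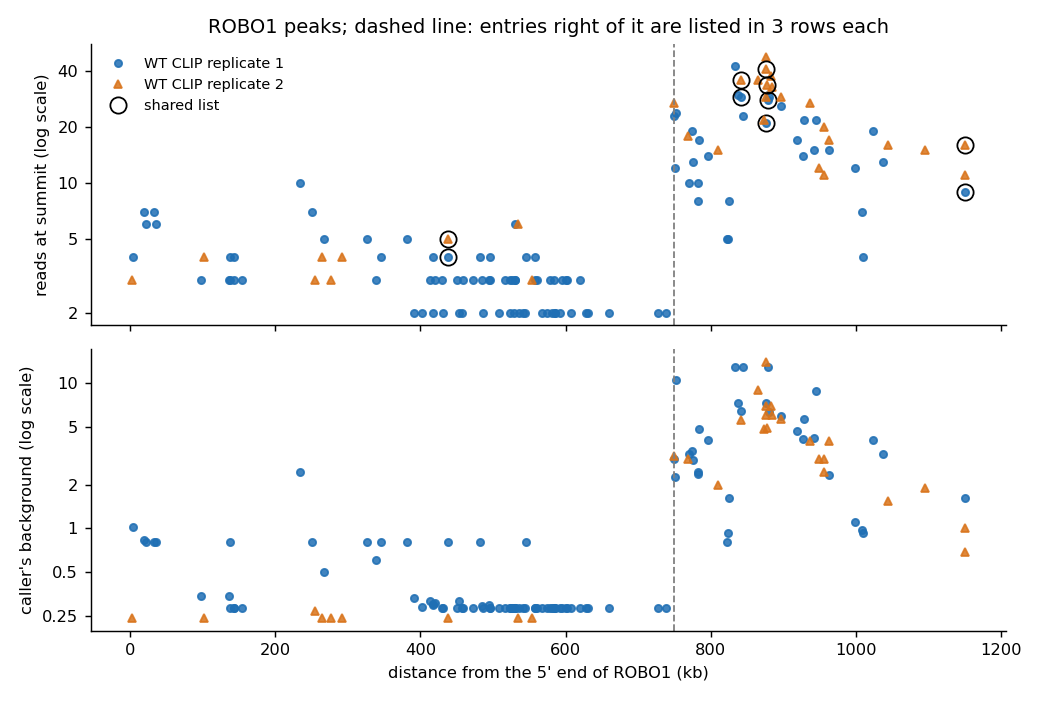
ROBO1 peaks by distance from the 5′ end of the gene in kb, with reads at the summit (upper panel, log scale) and the caller's background (lower panel, log scale) for both WT CLIP replicates. Right of the dashed line at 749.0 kb every peak is listed in 3 rows, and reads and background are higher there in both replicates than in most of the gene to the left.

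The top ROBO1 peaks by fold and by score lay in the 3′ portion. The highest score of replicate 1 belonged to 79068021 to 79068052, the first peak past the division, with 23 reads over a background of 2.99, 6.01-fold enrichment and a −log10 p of 13.62. Replicate 2 had its own first peak there at 79067638 to 79067683, with 27 reads and 5.09-fold enrichment, and the peaks did not overlap. The highest fold of replicate 1 was 6.16, from 12 reads at 78817582 to 78817611, unmatched in replicate 2. In replicate 2 the highest fold was 7.65 at 78667094 to 78667164, from 16 reads over a background of 0.69, and it overlapped a replicate 1 peak of 3.82-fold enrichment and 9 reads. The highest score of replicate 2 belonged to 78940558 to 78940619, with 41 reads over a background of 6.0 and a −log10 p of 12.31. Its replicate 1 partner at 78940563 to 78940620 had 21 reads over 7.34.

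Stretches of ROBO1 were filled unequally by the lists. Between 460 and 600 kb from the 5′ end, replicate 1 had 32 peaks of 2 to 6 reads and replicate 2 had 2. Between 870 and 890 kb, replicate 2 had 7 peaks of 22 to 48 reads and replicate 1 had 3 of 21 to 29 reads. These borders were also drawn after the positions had been seen.

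How often a peak recurred in the other replicate differed among the genes. Of replicate 2 peaks, 12 of 25 in PLXNA1 overlapped replicate 1 by at least 1 base, or 48.0% (exact 95% interval 27.8 to 68.7), and 5 of 11 in PLXNB2, or 45.5% (16.7 to 76.6). In ROBO1, 5 of 31 did, or 16.1% (5.5 to 33.7). Over the 5 genes the share was 32.8% (21.8 to 45.4), against 28.8% of the whole list, so as a group they lay near the list. Without ROBO1, a set taken after seeing the data, the share was 47.2% (30.4 to 64.5), above that of the list. The interval of PLXNB2 and that of ROBO1 both include the whole list's share, and that of PLXNA1 reaches down to 27.8% and so includes it too. The intervals cover counting error alone and take each peak as independent.

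Seen from replicate 1, 13 of 72 PLXNA1 peaks overlapped replicate 2, or 18.1% (10.0 to 28.9), as did 5 of 28 in PLXNB2, or 17.9% (6.1 to 36.9), and 5 of 106 in ROBO1, or 4.7% (1.5 to 10.7). Over the 5 genes the share was 10.2% (6.6 to 14.9), against 8.88% of the whole list. The interval of PLXNA1 lies above that share, while those of PLXNB2 and ROBO1 include it. The authors' shared list took in 6.64% of the replicate 1 peaks of the genes, against 6.52% of all replicate 1 peaks. Replicate 2 peaks lay a median of 3 bases from the nearest replicate 1 peak in PLXNA1, 63 bases in PLXNB2 and 3206 bases in ROBO1, against 325 bases over the whole list. Density bears on these figures, since a dense gene leaves less room between peaks, and its part was not tested.

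Read number changed the picture. In the whole list, overlap grew with reads, and the genes' peaks had few: 76.1% of their replicate 1 peaks and 35.8% of their replicate 2 peaks had at most 5 reads, against 58.8% and 28.9% of the whole lists. Among replicate 2 peaks of 4 to 9 reads, 11 of 23 in PLXNA1 and 5 of 11 in PLXNB2 overlapped, where the whole list gave 19.5%. Among replicate 2 peaks of at least 10 reads, all in ROBO1, 4 of 22 overlapped, or 18.2% (5.19 to 40.3), where the whole list gave 40.65%. In replicate 1, 3 of 27 ROBO1 peaks of at least 10 reads overlapped, where the whole list gave 27.4%. In these lists the share was thus lower for ROBO1 peaks of at least 10 reads than for the list's peaks of like read number, and higher for the weaker peaks of PLXNA1 and PLXNB2. The read classes were set after the files had been seen, and the differences were not tested.

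**Figure D4:**
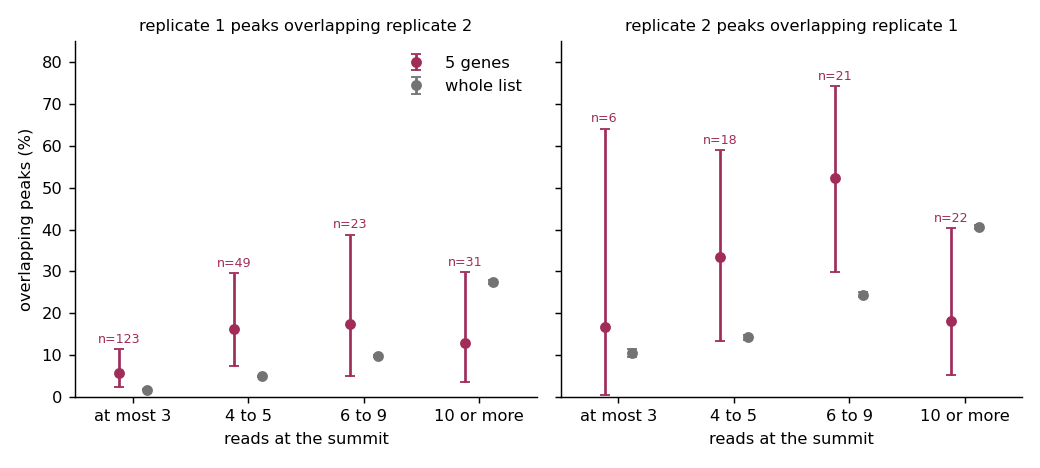
Percent of peaks that overlap a peak of the other WT CLIP replicate, by reads at the summit, for the 5 genes (left point of each pair, with the number of peaks) and the whole list (right point). Bars are exact 95% intervals for counting error. The genes' points lie above the list's in the classes up to 9 reads and below it at 10 or more reads, and several of the intervals include the list's value.

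The 15 shared pairs, 7 in PLXNA1, 3 in PLXNB2 and 5 in ROBO1, were modest. The median of the lower fold of a pair was 3.12 in the genes and 3.56 over all pairs. In 13 of the 15 the replicate 2 peak had the higher fold, against 53.3% of all pairs. In PLXNA1, after the pair described above, the second was 126719989 to 126720030, with 4.68-fold enrichment in replicate 1 and 4.41-fold in replicate 2. The third place was tied at 3.12-fold between 126710989 to 126711018, whose replicate 2 partner had 4.96-fold, and 126732140 to 126732169, whose partner had 3.21-fold.

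In PLXNB2 the second pair was 50744560 to 50744590, 1.48 kb from the 5′ end, with 3.90-fold enrichment from 4 reads in replicate 1 and 4.41-fold from 6 reads in replicate 2. The third was 50734796 to 50734830, with 3.90-fold and 3.81-fold. In ROBO1 the first pair was 78974940 to 78974970, with 29 reads and 4.01-fold enrichment in replicate 1 and 36 reads and 4.25-fold in replicate 2. The second was the pair at 78667112 to 78667167 with the highest replicate 2 fold. The third, 79379799 to 79379843, was the one shared pair upstream of the division, with 4 reads and 2.76-fold in replicate 1 and 5 reads and 3.81-fold in replicate 2.

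**Figure D5:**
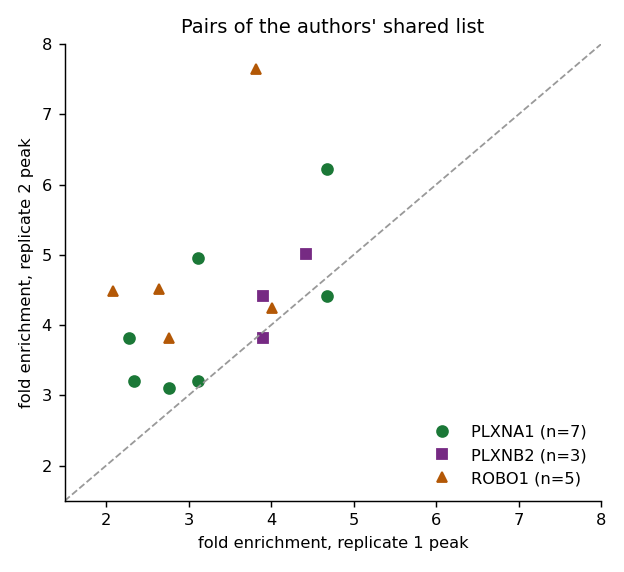
Fold enrichment of the replicate 1 peak (horizontal axis) against that of the replicate 2 peak (vertical axis) for the 15 shared pairs, by gene. The dashed line marks equal values, and 13 pairs lie above it. The ROBO1 pair at 7.65-fold in replicate 2 stands highest.

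Pooled over the 5 genes, high fold values were less frequent than in the whole lists. High −log10 p values were less frequent in replicate 1 and, through ROBO1, more frequent in replicate 2. A fold of at least 5 was reached by 6 of the 226 replicate 1 peaks, or 2.7%, where 9.16% of the whole list did, and by 7 of the 67 replicate 2 peaks, or 10.4%, where 18.0% did. A −log10 p of at least 5 was reached by 47 replicate 1 peaks, or 20.8%, against 28.7%, and by 32 replicate 2 peaks, or 47.8%, against 39.5%. Of the replicate 1 peaks past that −log10 p, 24 were in ROBO1, 19 in PLXNA1, 3 in PLXNB2, 1 in PLXNB1 and 0 in PLXND1. Of the replicate 2 peaks past it, 19 were in ROBO1, 9 in PLXNA1 and 4 in PLXNB2. In the 4 plexin genes alone the replicate 2 share was 36.1%, below the 39.5% of the whole list.

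The surroundings of the genes differed. Within 50 kb on either side on the same strand, replicate 1 listed 0 peaks around ROBO1 and PLXND1, 10 upstream and 0 downstream of PLXNB1, 12 upstream and 0 downstream of PLXNA1, and 9 upstream and 61 downstream of PLXNB2. Density in PLXNB2 was 8.57 per 10 kb in replicate 1, against 7.0 as the mean of its flanks, which were unequal. PLXNA1 stood at 14.8 against 1.2. In replicate 2 it was 3.37 in PLXNB2 against 1.6 in its flanks, and 5.12 in PLXNA1 against 0.7. Flanks may hold other genes, which were not analysed here. On the opposite strand the 5 genes had 2 peaks, both in ROBO1 and both copies, with the same values, of a peak listed on the gene strand, as were 3.61% of all replicate 1 entries and 3.26% of all replicate 2 entries. Peaks carry running numbers, and no number was absent inside any of the genes, while 25.6% and 15.2% of the numbers were absent over the whole lists. Before the next listed peak on either side, replicate 1 skipped 28 and 41 numbers outside ROBO1 and 8 and 13 outside PLXNA1. Outside the other genes it skipped at most 3, and the reason is not given in the sources. For that reason neither the opposite strand nor the flanks were taken as a measure of background.

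Neighbours within 1 kb were found for 53.5% of the genes' replicate 1 peaks and 52.2% of replicate 2 peaks, against 55.0% and 43.4% of the whole lists. The pooled figure hides opposite genes. It was 97.2% and 76.0% in PLXNA1 and 82.1% and 63.6% in PLXNB2, but 22.6% and 29.0% in ROBO1.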

How the data were processed

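The 2 deposited WT CLIP peak lists and the authors' list of shared pairs were read. Per the submitters' processing notes the build was hg19 and the tools included Novoalign 3.09.00, MACS2 2.1.1.20160309 and bedtools 2.25.0, without a role or order. Peak names carry a p threshold of 0.005, which was not adjusted for multiple testing, so weak peaks are kept. The deposited columns hold, for each peak, a score, a −log10 p and a ratio to the caller's background, called its fold. These are the authors' values, used to describe peaks within a list. No source used here names the control library of the caller.

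A peak repeated over several rows of a strand was kept once. Starts were counted from 1. Reads at the summit and background were solved from fold and −log10 p by the caller's formulas. These took fold as reads plus 1 over background plus 1 and p as a Poisson tail. The tolerance was 0.0005 reads and widened in proportion for peaks of many reads. Solving gave 1 whole-number solution for 99.8% of replicate 1 peaks and 99.76% of replicate 2 peaks. Tolerance and scaling were adjusted until the solutions were unique, and were tested on simulated data. The read numbers are therefore computed here. The simulated read numbers did not cover the lowest and the highest of these genes, and the scale of replicate 2 was not among those simulated.

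The 5 genes, the lists and the rules were chosen with earlier results of these data known. Read classes, windows of 50 kb, the division of ROBO1, the stretches within genes and the measure of gene order were chosen after the files had been seen. Named peaks were the 3 shared pairs with the highest lower fold in each gene and the top peak of each list by fold and by score, and the first replicate 2 peak past the ROBO1 division was added after its values were seen. Shares carry exact Clopper-Pearson intervals. No test between conditions was run, since the 8 columns of the authors' count table match no sample label and were not used, so the planned count tests were left out. Exons, introns, peak sequences and other guidance genes were not analysed here, since they need hg19 sequence and annotation. RefSeq tables in GRCh38 gave gene numbers, which matched for all 5 genes, and distances between starts. RefSeq gives PLXNA1 54.3 kb, longer than the 48.8 kb used here, so its distances from the 5′ end depend on the gene model. The software comprised scipy 1.17.1, matplotlib 3.10.9, pandas 2.3.3 and numpy 2.4.6 under Python 3.11.15, with bedtools 2.31.1 as a check of the overlap count.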

Additional observations from a re-analysis of the deposited data

How the results depend on the processing

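Of the summary values recomputed, 14 stayed within 1.5 times the reported count, the interval of the reported share or the spread between replicates, and 18 moved. A change of direction was not scored. With a −log10 p of at least 5 the genes held 47 peaks in place of 226 in replicate 1 and 32 in place of 67 in replicate 2, and with a fold of at least 5 they held 6 and 7. By density averaged over the lists, the order of the 5 genes kept 2 of 5 ranks at a −log10 p of at least 5, 3 by covered bases, and 2 to 5 when 1 replicate was left out; PLXNA1 and PLXNB2 stayed at the first and the second place by density in each list and at a −log10 p of at least 5. The 15 shared pairs became 23 when 1 shared base sufficed. The share of replicate 2 peaks overlapping replicate 1, 32.8%, was 20.9% when 50% of both peaks had to be shared (whole list 19.6%). It was 13.4% with replicate 1 reduced to the length of replicate 2 by keeping its peaks of highest −log10 p (whole list 18.6%). Without ROBO1 it was 47.2% (whole list 28.8%), and with at least 4 reads in both lists 23.0% (whole list 28.1%). Both of these settings, and the ROBO1 order from its 3′ portion, were added after seeing the data. In the stronger 50% of each list the share was 32.4% (whole list 33.2%). The genes' share thus lay above the list's as reported, with 50% of both peaks and without ROBO1. It lay below the list's with replicate 1 reduced, with at least 4 reads and in the stronger 50%. The median replicate 2 fold was 4.41 among shared peaks. Peaks on the gene strand were 100% in place of 99.1% of replicate 1 without peaks listed on both strands or at a −log10 p of at least 5. The first of these outcomes was fixed in advance, since the only opposite-strand entries were copies of peaks listed on both strands. The second came from the same entries, whose −log10 p values were 2.45 and 2.83, so neither outcome is further evidence. Gene over flank density in replicate 2, pooled over the 5 genes, was 1.05 with 50-kb and 2.02 with 20-kb flanks. In this ratio ROBO1 makes up most of the gene length, while the flanks of each gene count alike. Taken singly with 50-kb flanks, PLXNA1 had 5.12 per 10 kb against 0.7, PLXNB2 3.37 against 1.6 and ROBO1 0.265 against 0.0. PLXNB1 had 0.0 against 0.1, and PLXND1 had 0.0 in both. Neighbours within 500 bases were found for 43.8% and 37.3% of peaks in replicates 1 and 2. The density of the most 5′ part over the gene mean in replicate 2 was 0.75 with 5 parts and 1.34 with 10. The cause of these shifts was not tested. Stricter settings also leave smaller sets. No paired analysis was possible because no test was run on the peaks and the columns of counts match no label.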
